A study of Saccharomyces cerevisiae with 5 samples.

Results

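The genes described here make amino acids in Saccharomyces cerevisiae. They are the enzymes of the arginine, histidine, lysine, branched-chain (isoleucine, valine and leucine), aromatic, threonine and serine pathways, together with GCN4, the transcription factor that turns most of them on. They were taken by name from the gene symbols of the array platform. Of 47 listed genes, 46 had a probe under their symbol, 1 probe each, out of 6249 yeast genes or unnamed probes in all. LEU9, for an isopropylmalate synthase, was not named on the platform and is not analysed here. HIS3 and LEU2 were left out of the list because both serve as strain markers.

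Polyadenylated RNA was compared on 5 two-colour arrays, with 1 array for each comparison. Cells lacking SIW14, which encodes a phosphatase of inositol pyrophosphates, were set against the wild type BY4741 in 3 conditions: unstressed, in 0.4 mM hydrogen peroxide for 20 min, and in 0.4 M KCl for 20 min. On the other 2 arrays a wild type named ACY044 in peroxide or in KCl was set against its own unstressed cells. The mutant or stressed cells carried Cy5 and the wild type or unstressed cells Cy3 on every array, so any effect of the dyes cannot be told apart from what each array compares. BY4741 is known to need histidine, leucine, methionine and uracil. What ACY044 carries, and whether the mutant was 1 clone, are not given in the sources used here. The growth protocol names synthetic complete medium, which supplies amino acids, while the source names of the same samples read SD.

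In yeast, shortage of an amino acid activates the kinase Gcn2, and the resulting slowdown of translation start raises the making of Gcn4 protein from an mRNA that is already present. Gcn4 then binds upstream of genes in most of these pathways. Several pathways have a control of their own on top of this: Leu3 for leucine genes, Lys14 for lysine genes, Bas1 with Pho2 for histidine and purine genes, and Arg80, Arg81, Arg82 and Mcm1 for arginine genes. Several enzymes of the lysine, branched-chain and arginine pathways work in mitochondria, and 3 enzymes of the list carry an iron-sulphur cluster.

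All values below are log2 ratios of Cy5 over Cy3 as deposited, unless a fold is named, and 0 means equal signal. With 1 array for each comparison no test across replicates was possible, no value has an error, and a gene is called higher or lower where its log2 ratio is at least 1 in size, that is, 2-fold. SIW14 itself lay at -2.07, -1.66 and -2.06 on the mutant arrays without stress, in peroxide and in KCl. The left-out marker LEU2 lay at 1.84, 2.24 and 2.10 on the same 3 arrays and at 0.37 and -0.11 on the wild-type arrays in peroxide and in KCl. HIS3 had no value on the 3 mutant arrays and lay at 0.89 and -0.67 on the wild-type ones. The strains compared on the mutant arrays thus differed in LEU2 signal as well as in SIW14 signal, and the part of LEU2 in the results below was not tested.

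Across the 5 arrays, 26 of the 46 genes were at 2-fold or more at least once, where 44.2% of all genes were. Of these, 11 were higher at least once and 16 lower at least once, and CPA1 was both. The set was lower as a whole in wild-type cells in KCl and moved both ways in wild-type cells in peroxide. In KCl 0 genes were higher and 11 of 46 lower, against 11.5% and 11.7% of all genes, and the median of the set was -0.72, against 0.03 for all genes. In peroxide 8 of 46 genes were higher and 4 lower, against 10.7% and 11.3% of all genes, and the median was 0.19, against 0.03.

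Fewer of the genes passed 2-fold on the mutant arrays. Without stress 1 of 44 genes was higher and 2 were lower, against 6.18% and 1.55% of all genes, with a median of -0.09. With both strains in peroxide 5 of 46 were higher and 3 lower, against 12.8% and 8.3%, with a median of 0.13, which was -0.05 without the genes of paralogue pairs. With both strains in KCl 2 of 44 were higher and 4 lower, against 11.4% and 11%, with a median of -0.34. The shares on these 3 arrays lay below or near those of all genes, except for the lower genes without stress, which were HIS4 and ILV6. Their locus tags, YCL030C and YCL009C, place both on the left arm of chromosome III, the arm that also carries LEU2. The part of this position in their values was not tested. On all 3 arrays the strains also differed in LEU2 signal, and its part cannot be told apart from that of SIW14. Of the 42 genes with a value on all 3, 18 lay below 0 throughout and 6 above 0, against 32.4% and 32% of all genes.

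**Figure D1:**
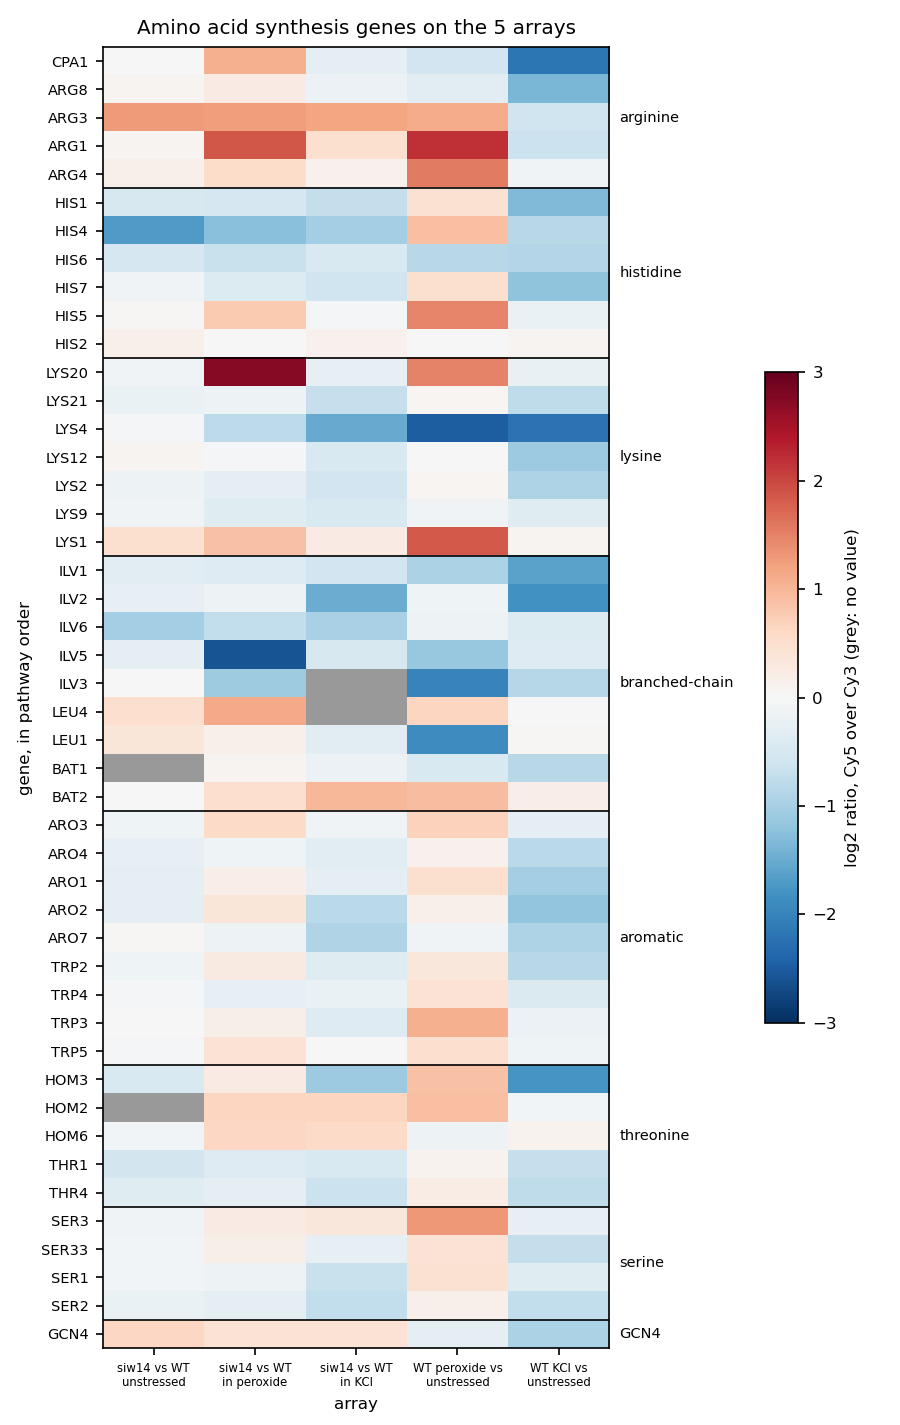
Log2 ratio of Cy5 over Cy3 for each of the 46 genes (rows, in pathway order) on each of the 5 arrays (columns), on a colour scale from -3 to 3, with grey for no value. The column of wild-type cells in KCl is mostly blue (median -0.72), and the deepest cells elsewhere are LYS20 at 2.73 and ILV5 at -2.59 in the mutant in peroxide and LYS4 at -2.48 in wild-type cells in peroxide.

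Arginine genes had the highest pathway median on both peroxide arrays, 1.12 in wild-type cells against unstressed ones and 1.05 in the mutant against wild type. The last 3 steps, which turn ornithine into arginine in the cytosol, were all at least 2-fold higher in wild-type cells in peroxide. There 10.7% of all genes were higher. ARG1, for argininosuccinate synthetase, lay at 2.19 in wild type in peroxide, or 4.55-fold, and at -0.65 in wild type in KCl. On the mutant arrays ARG1 lay at 0.07 without stress, 1.86 in peroxide and 0.47 in KCl. It was thus high on both peroxide arrays and within 2-fold on the other 3. ARG4, for argininosuccinate lyase, lay at 1.55 and -0.10 in wild type in peroxide and in KCl, and at 0.15, 0.54 and 0.14 in the mutant without stress, in peroxide and in KCl.

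ARG3, for ornithine carbamoyltransferase, was at least 2-fold higher in the mutant on all 3 mutant arrays. It lay at 1.28 without stress, 1.26 in peroxide and 1.19 in KCl, and at 1.12 and -0.59 in wild type in peroxide and in KCl. It was the only one of the 42 genes with 3 mutant values to be higher on all 3, where 4.35% of all genes were. The steps before it behaved otherwise. CPA1, for the small subunit of the arginine-controlled carbamoyl phosphate synthetase, lay at -0.57 in wild type in peroxide and -2.16, or 4.48-fold lower, in wild type in KCl. In the mutant it lay at -0.01, 1.05 and -0.27 without stress, in peroxide and in KCl, so that it passed 2-fold upwards in peroxide alone. ARG8, for the mitochondrial acetylornithine aminotransferase, lay at -0.33 and -1.38 in wild type in peroxide and in KCl and between -0.18 and 0.25 on the mutant arrays.

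The arginine breakdown genes CAR1 and CAR2 lay on the other side of 0 from ARG3 in the mutant. The synthesis genes together had medians of 0.09 without stress, 1.05 in peroxide and 0.14 in KCl there. CAR2, for ornithine aminotransferase, lay at -1.30 without stress, -2.13 in peroxide and -1.18 in KCl on the mutant arrays, and at 0.69 and 1.63 in wild type in peroxide and in KCl. CAR1, for arginase, lay at -0.82, -1.0 and -1.50 on the mutant arrays in the same order, and at 0.93 and 0.91 in wild type. Both were below 0 on every mutant array and above 0 on both wild-type arrays. The mutant arrays compare strains within a condition and the wild-type arrays compare conditions, so these signs do not show opposite responses to stress. In yeast the Arg80-Arg81-Mcm1 complex, helped by the inositol polyphosphate kinase Arg82, is known to repress arginine synthesis genes and to turn on CAR1 and CAR2 when arginine is present. On the mutant arrays ARG80 lay at -0.65, -0.33 and -0.95, ARG81 at 0.09, 0.17 and -0.62, ARG82 at -0.21, 0.11 and 0.12 and MCM1 at 0.36, 0.60 and 0.25, all within 2-fold. The part of this complex in the values of the arginine genes was not tested.

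Among the histidine genes 1 of 6 was at least 2-fold lower in the mutant in each condition, HIS4, whose product carries out the second, the third and the last steps. Of all genes 1.55% were lower without stress, 8.3% in peroxide and 11% in KCl. The medians of the pathway were -0.29 without stress, -0.46 in peroxide and -0.53 in KCl. HIS4 lay at -1.70, or 3.25-fold lower, in the unstressed mutant, at -1.25 in peroxide and at -1.01 in KCl. Its wild-type values were 0.90 in peroxide and -0.83 in KCl. It was the only one of the 42 genes to be at least 2-fold lower on all 3 mutant arrays, where 0.507% of all genes were, and without stress it ranked 29 from the bottom of 5603 genes. HIS1, for the ATP phosphoribosyltransferase that opens the pathway, lay at -0.47, -0.51 and -0.72 on the mutant arrays without stress, in peroxide and in KCl, and at 0.45 and -1.31 in wild type in peroxide and in KCl.

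The remaining histidine genes stayed within 2-fold in the mutant. HIS5, for histidinol phosphate aminotransferase, lay at 1.47 in wild type in peroxide and at 0.79 in the mutant in peroxide, and between -0.19 and 0.04 on the other 3 arrays. HIS7, for imidazole glycerol phosphate synthase, lay at 0.49 and -1.21 in wild type in peroxide and in KCl and between -0.59 and -0.11 in the mutant. HIS6, an isomerase gene, lay between -0.87 and -0.46 on all 5 arrays, and HIS2, for histidinol phosphatase, between -0.01 and 0.15. BAS1, for the activator that HIS4 shares with purine synthesis genes, lay at -0.10 in the unstressed mutant, -1.07 and -1.72 in the mutant in peroxide and in KCl, and -1.27 and -1.29 in wild type in peroxide and in KCl. HIS4 lies on the same chromosome arm as LEU2. The part of BAS1, of this position or of the LEU2 difference between the compared strains in the HIS4 values was not tested.

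In wild-type cells in peroxide 2 of the 7 lysine genes passed 2-fold upwards and 1 downwards, against 10.7% and 11.3% of all genes. LYS20, for a homocitrate synthase of the first step, lay at 1.48, and LYS1, for the saccharopine dehydrogenase of the last step, at 1.83. LYS4, for the homoaconitase between them, lay at -2.48, or 5.57-fold lower, and ranked 26 from the bottom of 6053 genes. The remaining 4 genes lay within 0.10 of 0: LYS21 and LYS2 each at 0.07, LYS12 at -0.01 and LYS9 at -0.10. They encode the other homocitrate synthase, the alpha-aminoadipate reductase, the homoisocitrate dehydrogenase and a further saccharopine dehydrogenase.

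In KCl the lysine genes other than LYS1, at 0.08, were all below 0 in wild-type cells. LYS4 lay at -2.23, LYS12 at -1.09, LYS2 at -0.92, LYS21 at -0.75, LYS9 at -0.36 and LYS20 at -0.23. LYS4 was also low in the mutant in KCl, at -1.52, and lay at -0.05 and -0.78 in the mutant without stress and in peroxide. It was therefore low on both KCl arrays and on the wild-type peroxide array.

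LYS20 had the highest ratio of any of the 46 genes on any array, in the mutant in peroxide. It lay there at 2.73, or 6.63-fold, at rank 108 from the top of 5806 genes, and at -0.10 and -0.25 in the mutant without stress and in KCl. LYS21 lay at -0.19, -0.16 and -0.68 on the mutant arrays without stress, in peroxide and in KCl. The 2 homocitrate synthase genes thus differed by 2.89 in the mutant in peroxide, a 7.40-fold gap, by 1.42 in wild type in peroxide and by at most 0.52 on the other 3 arrays. LYS1 lay at 0.47, 0.87 and 0.23 on the mutant arrays in the same order. LYS2, LYS9 and LYS12 lay between -0.58 and 0.08 there. LYS14, for the activator of lysine genes, lay between -0.81 and 0.29 over the 5 arrays.

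**Figure D2:**
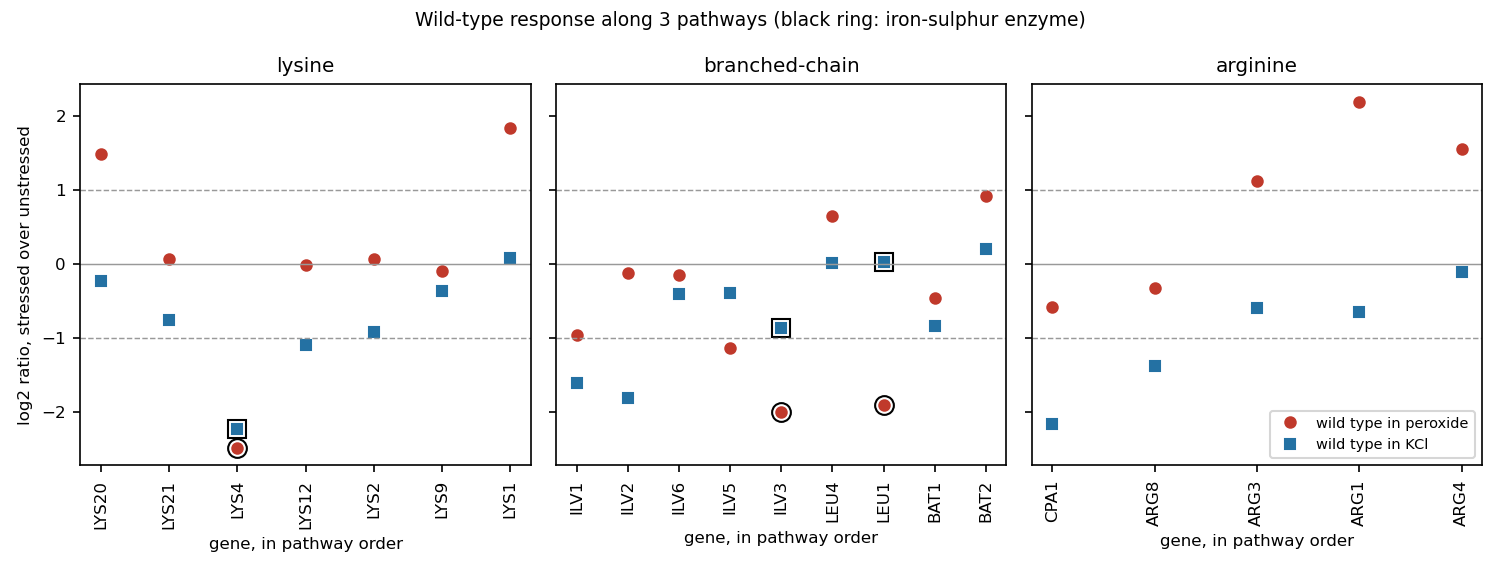
Log2 ratio of wild-type cells in peroxide (red circles) or in KCl (blue squares) over unstressed cells for the genes of the lysine, branched-chain and arginine pathways, placed in pathway order, with dashed lines at 2-fold and black rings around the 3 genes for iron-sulphur enzymes. The ringed red circles (LYS4 at -2.48, ILV3 at -2.0 and LEU1 at -1.90) lie below all other red circles, and those of ARG3, ARG1 and ARG4 at the end of the arginine pathway lie above 1.

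The branched-chain genes had the lowest pathway median in wild-type cells in peroxide, at -0.46, and 3 of 9 were at least 2-fold lower, against 11.3% of all genes. The median was -1.04 without the genes of paralogue pairs and -0.15 without ILV3 and LEU1. ILV3, for dihydroxyacid dehydratase, lay at -2.0, LEU1, for isopropylmalate isomerase, at -1.90 and ILV5, for acetohydroxyacid reductoisomerase, at -1.14. In KCl these 3 genes lay at -0.86, 0.03 and -0.39, and others were lower: ILV2, for the catalytic subunit of acetolactate synthase, at -1.81 and ILV1, for threonine deaminase, at -1.60. ILV2 and ILV1 lay at -0.12 and -0.95 in peroxide. ILV3, LEU1 and ILV5 were thus lower in peroxide than in KCl, and ILV2 and ILV1 were lower in KCl.

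ILV5 was the lowest of the 46 genes in the mutant in peroxide. It lay there at -2.59, or 6.03-fold lower, at rank 20 from the bottom of 5806 genes, and at -0.29 and -0.47 in the mutant without stress and in KCl. ILV5 also encodes a protein needed to keep mitochondrial DNA stable. ILV6, for the regulatory subunit of acetolactate synthase, lay at -1.03, -0.74 and -0.97 in the mutant without stress, in peroxide and in KCl, and at -0.15 and -0.41 in wild type in peroxide and in KCl. ILV6 passed 2-fold without stress only, and it lies on the same chromosome arm as HIS4 and LEU2. ILV2 lay at -0.25, -0.16 and -1.49 on the mutant arrays, ILV1 between -0.56 and -0.32, and ILV3 at 0.00 and -1.07 without stress and in peroxide, with no value in KCl.

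The leucine and aminotransferase genes were mostly within 2-fold in the mutant. LEU4, for isopropylmalate synthase, lay at 0.49 without stress and 1.14 in peroxide, had no value in KCl, and lay at 0.65 and 0.01 in wild type in peroxide and in KCl. LEU1 lay at 0.36, 0.16 and -0.33 on the mutant arrays. BAT1, for the mitochondrial branched-chain aminotransferase, had no value in the unstressed mutant and lay at 0.09 and -0.17 in the mutant in peroxide and in KCl, and at -0.46 and -0.84 in wild type. BAT2, for the cytosolic enzyme, lay at 0.00 without stress and at 0.51 and 1.0 in the mutant in peroxide and in KCl, and at 0.92 and 0.20 in wild type. LEU3, for the regulator of leucine genes, lay at -0.96 in wild type in peroxide and between -0.65 and -0.19 on the other 4 arrays. The LEU2 signal given above differed between the strains on the mutant arrays only, and its part in these values was not tested.

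**Figure D3:**
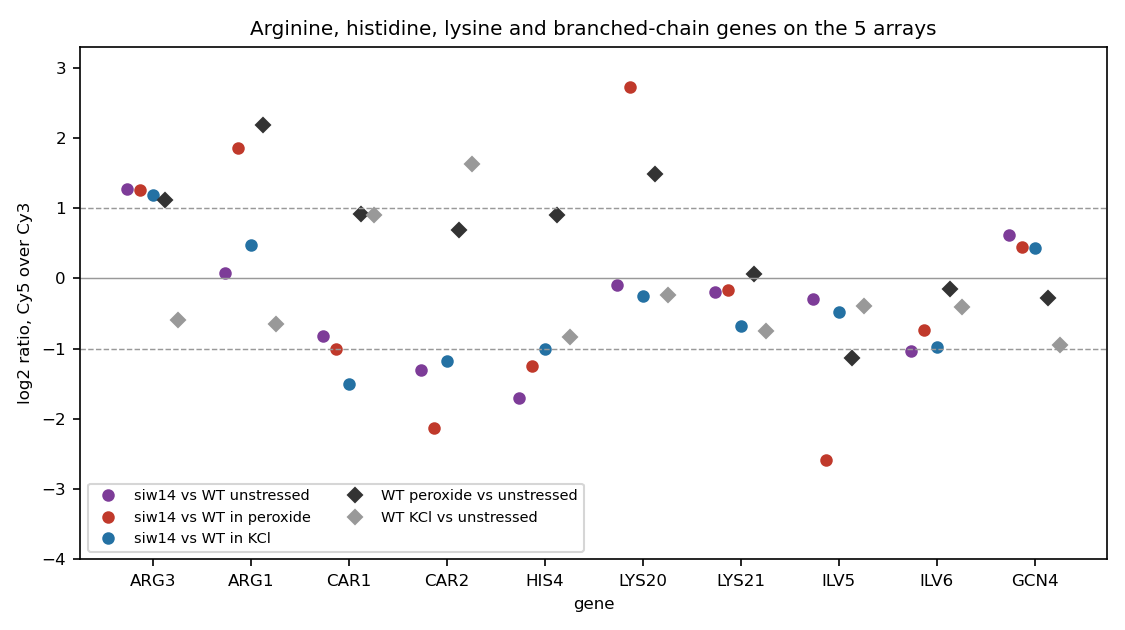
Log2 ratios of 8 of the 46 genes and of the arginine breakdown genes CAR1 and CAR2 on the 3 mutant arrays (circles) and the 2 wild-type arrays (diamonds), with dashed lines at 2-fold. The circles of ARG3 lie above 1 and those of CAR2 and HIS4 below -1 in all 3 conditions, whereas LYS20 at 2.73 and ILV5 at -2.59 stand out in peroxide alone.

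Aromatic genes stayed within 2-fold in the mutant and lay mostly on opposite sides of 0 in the 2 stresses of wild-type cells. In peroxide 8 of 9 lay above 0 with a median of 0.44, led by TRP3 at 1.06, whose product joins anthranilate synthase and makes indole glycerol phosphate. In KCl all 9 lay below 0 with a median of -0.81, from ARO2, for chorismate synthase, at -1.19 to TRP5, for tryptophan synthase, at -0.14. ARO1, for the enzyme of several steps to chorismate, lay at 0.49 in peroxide and -1.02 in KCl. On the mutant arrays ARO1 lay at -0.26, 0.20 and -0.26 and ARO2 at -0.27, 0.37 and -0.81 without stress, in peroxide and in KCl. TRP2, TRP4 and ARO7, for anthranilate synthase, the next transferase and chorismate mutase, lay at -0.84, -0.43 and -0.92 in wild type in KCl. Mutant values of the 9 genes ran from -0.27 to 0.04 without stress, -0.25 to 0.58 in peroxide and -0.91 to 0.02 in KCl.

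Among the threonine genes the aspartate kinase gene HOM3, which opens the pathway, had the widest swing. HOM3 lay at 0.87 in wild type in peroxide and -1.78 in wild type in KCl, and at -0.47, 0.24 and -1.09 in the mutant without stress, in peroxide and in KCl. It was low on both KCl arrays. THR4, for threonine synthase, lay at 0.23 and -0.77 in wild type and at -0.36, -0.28 and -0.63 in the mutant, and THR1, for homoserine kinase, at 0.10 and -0.70 in wild type and -0.55, -0.39 and -0.46 in the mutant. Between these steps, HOM2, for aspartate semialdehyde dehydrogenase, had no value in the unstressed mutant and lay between -0.09 and 0.90 elsewhere, and HOM6, for homoserine dehydrogenase, lay between -0.15 and 0.61.

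Serine genes were all above 0 in wild type in peroxide, with a median of 0.45, and all below 0 in wild type in KCl, with a median of -0.53. SER3, for a phosphoglycerate dehydrogenase, lay at 1.30 and -0.24 in wild type in peroxide and in KCl, and at -0.11, 0.26 and 0.33 in the mutant without stress, in peroxide and in KCl. SER1, for phosphoserine aminotransferase, lay at 0.47 and -0.35 in wild type and at -0.08, -0.15 and -0.68 in the mutant. SER2, for phosphoserine phosphatase, and SER33, for the other dehydrogenase, lay between -0.74 and 0.43 on all 5 arrays. SER3 in wild type in peroxide was the only serine value at 2-fold or more.

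GCN4 mRNA was within 2-fold on all 5 arrays. It lay at 0.62, 0.44 and 0.44 in the mutant without stress, in peroxide and in KCl, and at -0.28 and -0.95 in wild type in peroxide and in KCl. GCN4 was thus above 0 on the mutant arrays. There 31 of 43, 21 of 45 and 33 of 43 enzyme genes lay below 0, in the same order. Of all genes 2804 of 5603, 2949 of 5806 and 2922 of 5816 lay below 0. In peroxide 24 of the 45 enzyme genes lay above 0, as GCN4 did. Since Gcn4 is controlled mainly in translation, its mRNA level is not a measure of its protein. Of the 12 regulator genes considered, among them GCN2 and its partners GCN1 and GCN20, 0 were higher on any array, where 6.18% to 12.8% of all genes were higher on each. The lower ones were BAS1 on the 4 arrays with stress, ARG80 at -1.25 in wild type in peroxide and GCN3, for a subunit of the translation factor that Gcn2 signals to, at -1.09 in wild type in KCl, where 1.55% to 11.7% of all genes were lower on each array.

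**Figure D4:**
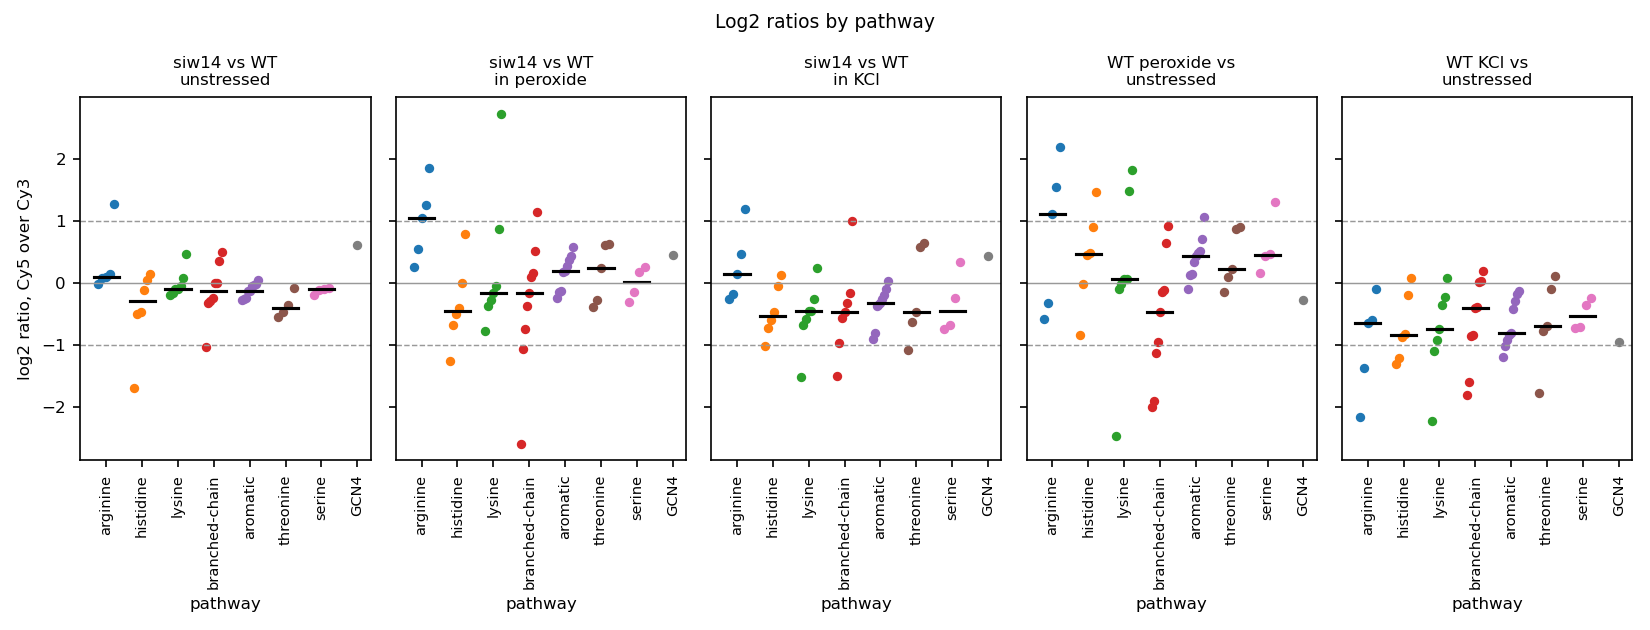
Log2 ratio of each gene by pathway on the 5 arrays, with a black line at the pathway median and dashed lines at 2-fold. In wild-type cells in peroxide the medians run from -0.46 for branched-chain to 1.12 for arginine genes, and in wild-type cells in KCl all lie between -0.85 and -0.41.

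Set side by side, the 2 stresses of wild-type cells gave these genes different ratios. Peroxide was at least 2-fold above KCl for 20 of 46 genes and at least 2-fold below it for 2, against 8.32% and 9.37% of all genes, with a median difference of 0.99. Both arrays were set against unstressed ACY044 cells, whose level cancels in this difference if the same RNA was used, which the labels do not say. All 5 arginine genes were among the 20, with ARG1 the furthest apart at 2.84, as were HIS1, HIS4, HIS7 and HIS5, with differences between 1.66 and 1.76. HOM3 differed by 2.65. The 2 genes on the other side were LEU1 at -1.93 and ILV3 at -1.14. GCN4 differed by 0.67.

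**Figure D5:**
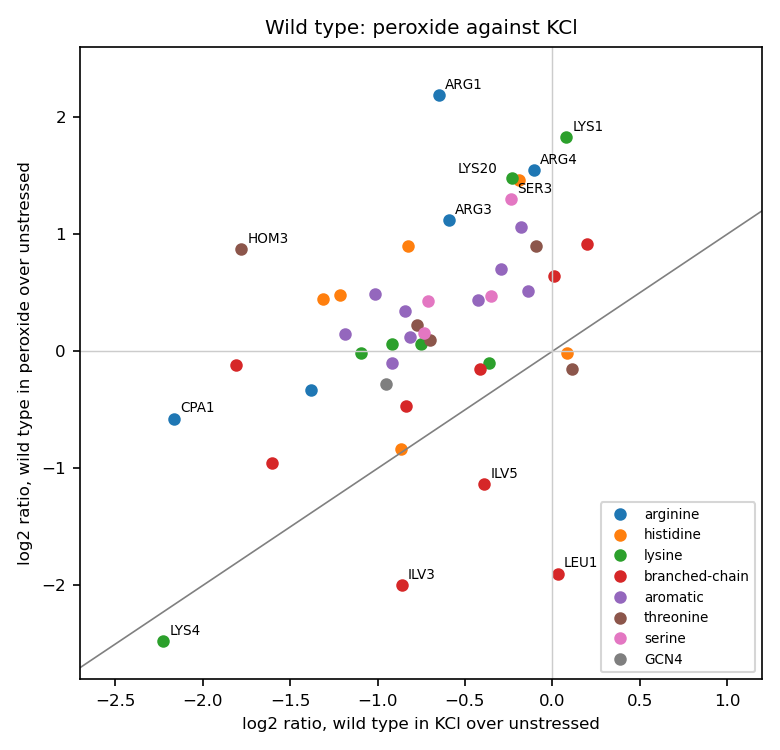
Log2 ratio in wild-type cells in peroxide (vertical axis) against that in KCl (horizontal axis), both over unstressed cells, for each of the 46 genes coloured by pathway, with the line of equal ratios in grey. Of the 46 genes 40 lie above the line, and LEU1, ILV3 and ILV5 lie furthest below it.

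The change that each stress made to the mutant's difference from wild type was small for most genes. The value in peroxide minus that without stress was at least 2-fold up for 3 of 44 genes and down for 2, against 5.09% and 3.94% of all genes. The genes that were up were LYS20 at 2.82, ARG1 at 1.79 and CPA1 at 1.07, and those that were down were ILV5 at -2.30 and ILV3 at -1.07. For KCl 1 of 42 was up and 2 were down, against 4.06% and 7.83%, namely BAT2 at 1.01, LYS4 at -1.47 and ILV2 at -1.25. ARG3 moved by -0.02 in peroxide and -0.09 in KCl, so its difference between the strains was of like size in all 3 conditions.

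The 3 lowest genes in wild-type cells in peroxide, LYS4, ILV3 and LEU1, encode enzymes that carry an iron-sulphur cluster, and they are the iron-sulphur enzymes of the list. This grouping was made after their values were seen. The enzymes of LYS4 and ILV3 work in mitochondria and that of LEU1 in the cytosol. The part of the cluster or of the location in these values was not tested. The mitochondrial enzymes had a median of -0.40 in wild type in peroxide over 10 genes and -0.24 over the 8 without LYS4 and ILV3, against 0.45 over the 33 other enzymes. Most of the 10 were branched-chain genes, a pathway with a median of -0.46 there, so location and pathway cannot be told apart. In wild type in KCl the medians were -0.98 for mitochondrial and -0.65 for other enzymes.

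Some steps have a pair of similar genes, whose wild-type ratios are given side by side here; both wild-type arrays are set against unstressed ACY044 cells, so they are not independent. In peroxide LYS20 exceeded LYS21 by 1.42, SER3 exceeded SER33 by 0.87 and ARO3 exceeded ARO4 by 0.58, the latter pair encoding DAHP synthases at the entry to the aromatic pathway, and BAT1 minus BAT2 was -1.38. In KCl the same differences were 0.52, 0.48 and 0.52, and -1.04 for BAT1 minus BAT2. In the mutant ARO3 lay at -0.13, 0.58 and -0.10 and ARO4 at -0.24, -0.13 and -0.32 without stress, in peroxide and in KCl. Probes of similar genes can pick up each other's RNA, and this was not tested.

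Other genes around these pathways were counted from lists. Of 7 further enzymes of the same pathways with a probe, 1 was at 2-fold or more on any of the 5 arrays, where 44.2% of all genes were, namely ARG7 of ornithine synthesis at 1.06 in wild type in peroxide. Of 9 enzymes for other amino acids, 4 were lower in wild type in KCl, against 11.7% of all genes, namely PRO1 of proline synthesis at -2.23, GLY1 for threonine aldolase at -1.90, ASN1 for asparagine synthetase at -1.60 and SHM2 for serine hydroxymethyltransferase at -1.29. PRO1, ASN1 and GLY1 were also lower in the mutant in KCl, at -2.10, -1.63 and -1.15, where 11% of all genes were lower. Of 9 breakdown genes with a value in wild type in KCl, 3 were higher, against 11.5% of all genes, and 0 lower. They were ARO9 and ARO10, which degrade aromatic amino acids, at 3.32 and 2.77, and CAR2. In wild type in peroxide 2 of 10 breakdown genes were higher, against 10.7% of all genes, and 0 lower. These were ARO9 at 1.32 and ARO10 at 1.29. In the mutant in KCl ARO10 lay at -2.08 and ARO9 at -0.82. In the unstressed mutant 2 of 8 breakdown genes were higher, against 6.18% of all genes, and CAR2 was lower. The higher ones were the glycine cleavage genes GCV1 and GCV2 at 1.4 and 1.64, with GCV3 at 0.997. GCV1, GCV2 and GCV3 lay at 0.68, 0.34 and 0.64 in the mutant in peroxide. In the mutant in KCl they lay at 0.70, 0.18 and 0.62, so all were within 2-fold under stress.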

How the data were processed

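Per the labels, polyadenylated RNA was reverse transcribed and labelled with Cy3 or Cy5. The authors deposited 1 value for each probe and array, read here as log2 of Cy5 over Cy3. The log base, background correction, normalisation and cause of missing values are not given in the sources used here, and natural logarithms remained possible. No intensities were at hand, so signal over background is unknown and the number of arrays limits the precision. With pandas 2.3.3, symbols came from the platform annotation, 129 were updated through the RefSeq gene table, and probes of 1 gene were averaged (7 symbols). The 53 control features were left out. Counting was tested on simulated data. Genes given values on every array were GCN4, the 2 of each pathway with the widest range, paralogue pairs and those at 4-fold or more, and most others were added. The members and lists were chosen with earlier results of these data known. Promoter motifs and protein comparisons were planned but no sequences were used here.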

Additional observations from a re-analysis of the deposited data

Results flagged for a closer look

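ARG1, ARG3, HIS4 and HOM3 went in opposite directions in the 2 stresses of wild-type cells by at least 1.5-fold each. ARG1 lay at 2.19 in peroxide and -0.65 in KCl, and ARG3 at 1.12 and -0.59. HIS4 lay at 0.90 and -0.83, and HOM3 at 0.87 and -1.78. The difference was not tested, since each stress had 1 array.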

How the results depend on the processing

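Of 263 values recomputed under alternatives, 236 kept within 1.5 times a count, or within the order-statistic interval of a median over its genes, and 27 moved further. For the arginine, histidine, lysine, threonine and serine genes, and the branched-chain genes where a value was missing, this interval spanned all their values. Leaving genes out could not move those medians beyond it, so they were kept by construction. Within those intervals 4 medians near 0 changed sign. Without paralogue pairs they were the set (0.13 to -0.05) and serine genes (0.01 to -0.23) in the mutant in peroxide and lysine genes (0.07 to -0.01) in wild type in peroxide, and over genes with a value on all 5 arrays threonine genes in the mutant in peroxide (0.24 to -0.02). Centring each array on its median moved no value beyond these bounds. The array medians already lay between -0.02 and 0.03, so centring could change little. At 1.5-fold the counts were 2 higher in the unstressed mutant, 14 higher in wild type in peroxide, 27 lower in wild type in KCl, 9 higher and 6 lower in the mutant in peroxide and 13 lower in the mutant in KCl, where 11.8% and 6.53% of all genes were higher and lower in the unstressed mutant and 20.9% to 23.2% on the other arrays. Read as natural logarithms, 13 genes were higher in wild type in peroxide, 25 lower in wild type in KCl, 5 lower in the mutant in peroxide and 9 lower in the mutant in KCl; the set's median was -1.04 in wild type in KCl and -0.49 in the mutant in KCl, and the medians were -0.60 for threonine genes in the unstressed mutant and -1.17 for aromatic and -0.77 for serine genes in wild type in KCl. The same reading gave 7 genes up in peroxide over unstressed in the mutant, and 32 with peroxide above KCl in wild type. Scaled to each array's own spread, the unstressed mutant had 2 genes higher, a set median of -0.17 and a threonine median of -0.73, the mutant in KCl 1 higher and 2 lower, 5 genes were up in peroxide over unstressed in the mutant, and 1 had peroxide below KCl in wild type. Without paralogue pairs 3 genes were higher in the mutant in peroxide and 1 in the mutant in KCl, since LYS20 and LEU4, and BAT2, were left out. Without the 3 iron-sulphur enzymes, an alternative chosen after seeing the data, 1 gene was lower in wild type in peroxide. With only genes that have a symbol as background, the shares at 2-fold on the 5 arrays ran from 1.12% to 12.5%. The motif alternative was not run. No paired analysis was possible because each comparison had 1 array. The cause of the moved values was not tested, apart from those that fewer genes or a lower threshold make by construction.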

Other observations

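The genes of 7 listed iron-sulphur enzymes outside the pathways above were also low in wild-type cells in peroxide. The list was made after the values of LYS4, ILV3 and LEU1 were seen. It is not a full set of such enzymes, so its share does not stand for iron-sulphur enzymes in general. All 7 with a value were at least 2-fold lower, where 11.3% of all genes were: GLT1 for glutamate synthase at -3.84, SDH2 of succinate dehydrogenase at -2.05, BIO2 for biotin synthase at -1.98, LIP5 for lipoate synthase at -1.52, MET5 for sulphite reductase at -1.38, RIP1 of the cytochrome bc1 complex at -1.31 and ACO1 for aconitase at -1.20. In wild-type cells in KCl the 7 genes went both ways, from MET5 at -1.92 to RIP1 at 1.30. On the mutant array in peroxide they ran from GLT1 at -0.85 to RIP1 at 1.63.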
